A study of Mus musculus with 11 samples.

Results

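A total of 68 of the 290 genes listed for HaCa4 cells were under a low limit, here called silent, in HaCa4 cells grown alone. Their mean was higher after co-culture with lymphatic endothelial cells (LECs). HaCa4 is a mouse skin squamous carcinoma line with an activated H-Ras oncogene, and the LECs are a conditionally immortal mouse line (imLEC) that carries SV40 large T antigen under the interferon-inducible H-2Kb promoter, of which the study used different clones interchangeably. The genes had to be under 0.5 TPM (a measure of transcript abundance that corrects for gene length and library size) in both HaCa4 control libraries, which came from single culture. They also needed a higher mean in the 3 HaCa4-sorted libraries, obtained by FACS once the cells had shared a dish with LECs for 24 h. This was met by 98 genes, of which 26 established endothelial, adhesion, and interferon genes and 4 genes also listed for LECs were set aside. HaCa4 cells were sorted by the dye CFSE and LECs by an antibody to CD31, the product of *Pecam1*, with dead cells and doublets excluded. The labels do not say whether the replicates were separate cultures. The values that chose the genes are those described below, so counts of these genes passing a test are descriptive only. No fold change of a single gene is given against a control listed at 0. In bulk RNA, fewer cells of a type and less RNA per cell cannot be told apart.

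Endothelial cells owe their identity to a network of transcription factors of the ETS, SOX, and homeobox families, which maintain genes for vascular receptors, junctions, and small GTPase signaling. Interferon signaling acts through a separate route, in which STAT and IRF factors bind the interferon-stimulated response element and switch on antiviral effectors and their own feedback inhibitors. LECs line the vessels that drain the skin, and epidermal carcinoma cells are epithelial cells that normally keep the endothelial network silent. The growth medium of the LEC line contains IFN-γ, which is withdrawn before functional assays.

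The promoters of 4 genes are shown, chosen by a high sorted mean or because they hold a motif read below. They do not stand for the promoters of the other genes. *Ifit3b* and *Tgtp2* are interferon-inducible, *Clca3a1* had the highest mean level of the genes outside the interferon list, and *Erg* encodes an endothelial ETS factor. Each sequence is the 250 bases before a transcription start in RefSeq (GRCm38.p6), written 5′ to 3′ on the strand of the gene, and none overlaps an exon of GENCODE M21. For *Erg* and *Ifit3b* this start lies inside the span of the gene in RefSeq and not at its outer end. Capitals mark the response element (GAAA, any 2 bases, GAAA) on either strand in the first 3 genes, and the SOX letters AACAAT and GATA letters AGATAA on either strand in *Erg*.
Ifit3b, chr19:34607707-34607956, plus strand: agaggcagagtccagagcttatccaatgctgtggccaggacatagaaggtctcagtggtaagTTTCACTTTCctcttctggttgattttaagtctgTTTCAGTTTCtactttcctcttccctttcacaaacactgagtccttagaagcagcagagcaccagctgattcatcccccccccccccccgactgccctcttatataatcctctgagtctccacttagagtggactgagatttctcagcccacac
Tgtp2, chr11:49064213-49064462, minus strand: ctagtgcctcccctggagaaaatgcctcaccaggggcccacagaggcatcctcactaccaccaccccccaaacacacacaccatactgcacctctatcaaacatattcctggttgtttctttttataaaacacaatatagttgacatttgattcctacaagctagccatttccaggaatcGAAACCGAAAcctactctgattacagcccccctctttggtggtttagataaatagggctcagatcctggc
Clca3a1, chr3:144760978-144761227, minus strand: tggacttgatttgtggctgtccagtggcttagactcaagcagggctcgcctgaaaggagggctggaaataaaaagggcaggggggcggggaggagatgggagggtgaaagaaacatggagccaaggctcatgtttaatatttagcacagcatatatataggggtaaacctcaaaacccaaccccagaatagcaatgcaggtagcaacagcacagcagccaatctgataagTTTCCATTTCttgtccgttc
Erg, chr16:95459349-95459598, minus strand: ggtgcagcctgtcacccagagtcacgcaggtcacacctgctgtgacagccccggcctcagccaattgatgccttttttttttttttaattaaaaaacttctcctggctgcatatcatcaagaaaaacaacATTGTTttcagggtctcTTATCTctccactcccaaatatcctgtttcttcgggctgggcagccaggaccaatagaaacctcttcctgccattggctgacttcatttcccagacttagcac
*Ifit3b* carried 2 copies of the response element, 188 and 154 bases before the start, and *Tgtp2* and *Clca3a1* 1 copy each. RefSeq promoter windows were at hand for 46 of the 68 genes, in 58 windows. The letters of this element were found in 4 of these windows (6.90%), those of *Ifit3b*, *Tgtp2*, *Clca3a1*, and *Tll1*, and in 2.98% of all 32851 windows. Of the 4 windows that belong to genes of the interferon list, 2 held it, and both are printed above. The ETS core CCGGAA was found in 2 windows (3.45%, against 12.03% of all) and the composite AACAGGAA in 0 (against 2.25%). AGATAA was found in 8 windows (13.8%, against 9.99%), AACAAT in 5 (8.62%, against 9.42%), and the AP-1 letters TGANTCA in 7 (12.1%, against 6.75%). The kappaB letters (GGGA, any base, TTTCC) were in 0 windows (against 0.356%). Both strands were read, no motif contains another, and a match is a description of the letters and not a binding site.

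In the controls, 33 of the 68 genes were listed at 0 in both libraries, 13 were at 0 in 1 library, and 22 were above 0 in both. The highest control value was 0.34 TPM, shared by *Usp18* and *Loxl2*, and the next was that of *Ifit3b* at 0.30 TPM. The nearest higher genes on the other side of the limit were *Pax8* (0.66 and 0.50 TPM in the controls), *Cd93* (0.69 and 0.36 TPM), and *Rtp4* (0.69 and 0.59 TPM). After co-culture the mean level of the genes was lowest in *Nhsl2* (0.163 TPM) and highest in *Usp18*, with a median of 1.17 TPM, so most of them remained at a low level. A total of 40 genes had a mean of at least 1 TPM and 4 genes a mean of at least 5 TPM.

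**Figure D1:**
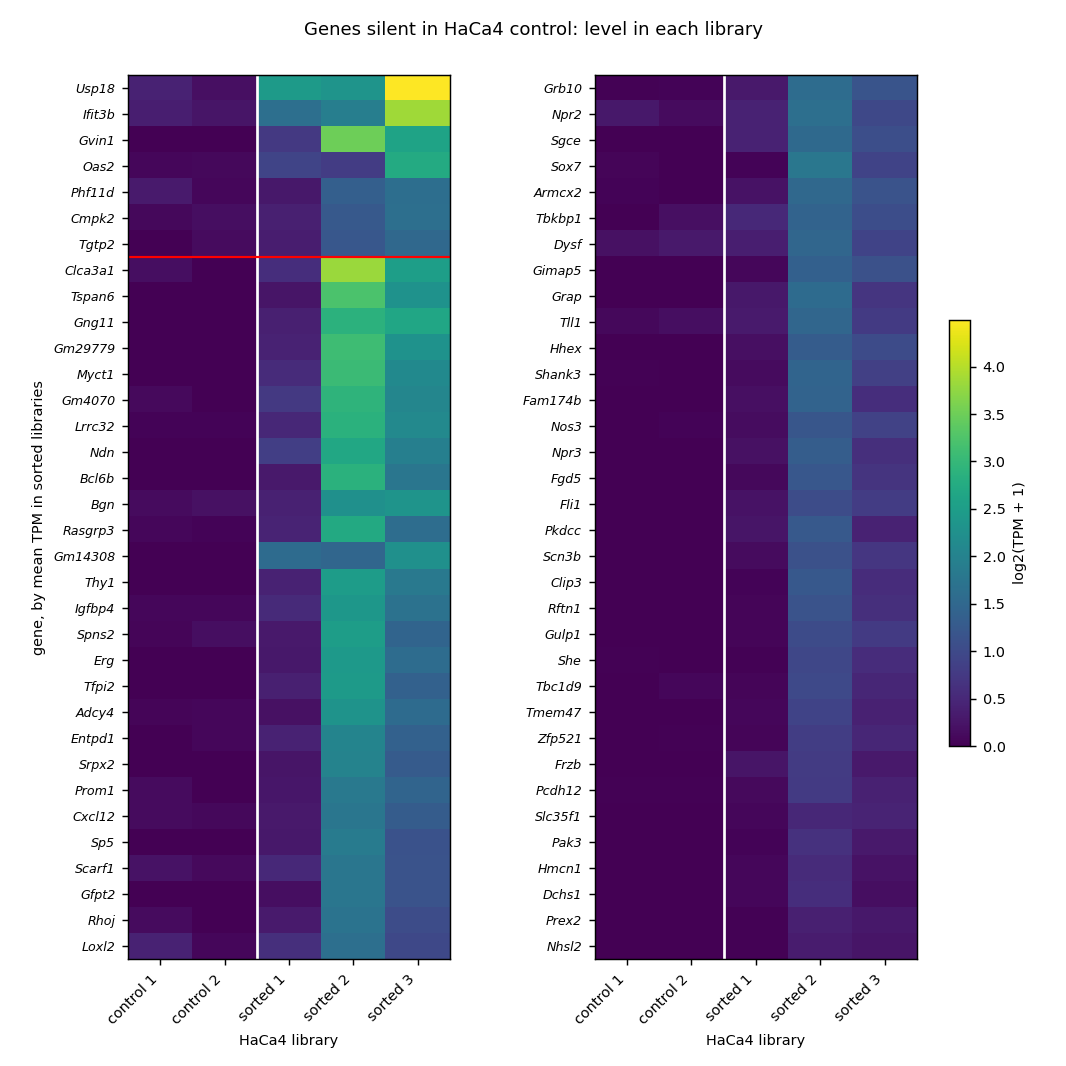
Level of each of the 68 genes (rows) in the 2 HaCa4 control and 3 HaCa4-sorted libraries (columns), as log2(TPM + 1) by color. The 7 genes of the interferon list stand above the red line, and all other genes are ordered by their mean in HaCa4-sorted across both panels. The controls are dark throughout, sorted replicate 1 is faint for most genes, and sorted replicate 2 is the brightest column outside the interferon list.

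The 3 sorted libraries differed in how far the genes rose above 0. At 0.5 TPM or more there were 9 genes in HaCa4-sorted replicate 1, 64 in replicate 2, and 54 in replicate 3. The median level was 0.22, 1.87, and 1.18 TPM in replicates 1 to 3. Summed over the 68 genes, the controls held 2.95 and 2.15 TPM, and sorted replicates 1 to 3 held 24.17, 192.75, and 139.72 TPM. Only 9 genes reached 0.5 TPM in all 3 sorted libraries. A sorted mean of at least 0.5 TPM was reached by 56 genes, and by 61, 42, and 57 genes when sorted replicate 1, 2, or 3 was left out. The coefficient of variation of the sorted libraries was at least 0.5 in 67 of the 68 genes, the exception being *Gm14308* at 0.435.

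**Figure D2:**
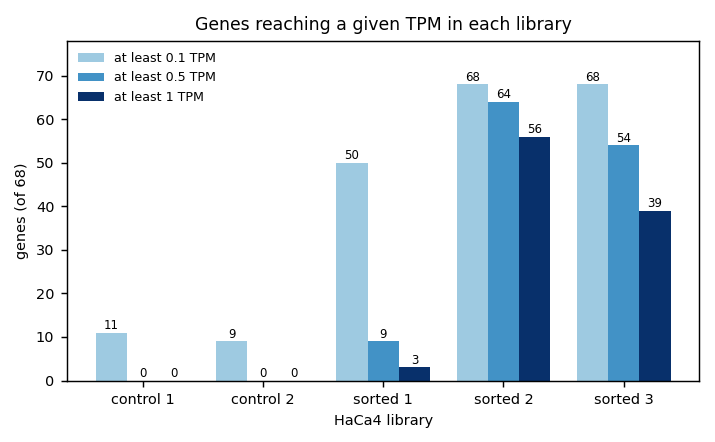
Number of the 68 genes at or above 0.1, 0.5, and 1 TPM in each HaCa4 library, with the count above each bar. No gene reaches 0.5 TPM in a control because the genes were chosen that way, and sorted replicate 1 holds 9 genes at that level against 64 and 54 in replicates 2 and 3.

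In 64 of the 68 genes, every sorted library lay above both controls, and this was so for 63.1% of all 290 listed genes, which include 98 genes with a lower sorted mean. Among listed genes with a higher sorted mean that were not silent it was so for 91 of 94, and among the 26 set aside by name for 24. The exceptions were *Phf11d*, *Sox7*, *Tbc1d9*, and *She*, whose lowest sorted value, in replicate 1, was at or under the higher control. With limma on log2(TPM + 1) over all 290 genes, 46 genes (15.9%) were upregulated at an adjusted p of at most 0.05 and a log2 fold change of 0.5 or more, among them 2 of the 68, *Usp18* and *Gm14308*. The genes were selected on this contrast, so the counts are descriptive. The number rested on single libraries and was 61 without sorted replicate 1. It was 0 without sorted replicate 3, control 1, or control 2 in limma, with 3, 1, and 1 genes at an unadjusted p under 0.05. All 290 genes split into 46 upregulated and 41 downregulated, and after scaling the libraries to a common median into 50 and 95, with 23 of the 68 upregulated and the fold changes of all 290 genes shifted by a median of -0.72 on the log2 scale. The log2 fold changes of the 68 genes had a median of 0.95 on the log2(TPM + 1) scale, and those of all 290 genes a median of 0.74.

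Listed markers of endothelial and lymphatic endothelial cells were higher in mean after co-culture, as the 68 genes were by the rule. Of 21 defining endothelial markers, 14 were listed for HaCa4 cells, 1 of them, *Erg*, among the 68. In 13 of the 14 every sorted library lay above both controls, as in 63.1% of all 290 listed genes and 91 of 94 raised genes that were not silent. In both controls 12 of the 14 were under 0.5 TPM, and 5, *Cdh5*, *Emcn*, *Erg*, *Icam2*, and *Robo4*, were listed at 0. The summed level of the 14 was 4.6 and 3.17 TPM in the control libraries and 18.02, 248.36, and 111.17 TPM in HaCa4-sorted replicates 1 to 3. For 3 of 8 lymphatic markers that were listed, *Flt4*, *Lyve1*, and *Sox18*, the sums were 0.00 and 0.22 TPM without and 1.35, 26.44, and 8.93 TPM after co-culture. Of 54 keratinocyte markers 5 were listed. They summed to 363.78 and 447.04 TPM in the controls and to 273.44, 254.01, and 301.39 TPM after co-culture. Of these 5, *Dsg3*, *Itga2*, *Krt6b*, and *Krt8* lay below both controls in all 3 sorted libraries. *Krt19* was higher, at 10.03 and 10.28 TPM before and 16.59, 18.49, and 29.27 TPM after co-culture. A lower sorted mean was found in 98 of all 290 listed genes. None of 47 leukocyte markers and none of 30 fibroblast and mural cell markers was listed. The part of LEC RNA in the HaCa4-sorted libraries in these results was not tested, and the level of the 68 genes in LECs was not analysed here, since the listed LEC genes do not include them.

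Where a gene has a series of values below, they are those of controls 1 and 2 and of sorted replicates 1, 2, and 3, in that order, in TPM. Of the 4 genes with a mean of at least 5 TPM, *Usp18*, *Ifit3b*, and *Gvin1* are induced by interferon. *Usp18*, the protease that removes ISG15 from proteins and dampens interferon receptor signaling (chromosome 6 from 121245906 to 121270917 of GRCm38.p6), was at 0.34 and 0.14 TPM in the controls. It reached 4.47, 4.02, and 21.51 TPM after co-culture. *Ifit3b*, of the antiviral IFIT family that recognizes foreign RNA, had control levels of 0.30 and 0.19 TPM and sorted levels of 2.12, 2.81, and 13.38 TPM. *Oas2*, which makes the second messenger that activates RNase L, went from 0.06 and 0.07 TPM to 0.89, 0.73, and 5.69 TPM. In these 3 genes sorted replicate 3 stood well above replicates 1 and 2. Every sorted library lay above both controls, as in 64 of the 68 genes. This was so in 91 of 94 raised genes that were not silent and in 63.1% of all 290 listed genes.

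*Cmpk2*, a nucleotide kinase of the mitochondria, had control levels of 0.07 and 0.12 TPM and sorted levels of 0.32, 1.39, and 2.12 TPM. *Tgtp2*, one of the interferon-inducible GTPases that act on the vacuoles of intracellular parasites, had control levels of 0.00 and 0.09 TPM and sorted levels of 0.29, 1.34, and 1.87 TPM. *Phf11d*, a PHD finger gene, had control levels of 0.26 and 0.05 TPM and sorted levels of 0.22, 1.58, and 2.09 TPM, so that its replicate 1 lay between the controls. Replicate 3 was highest again, but replicate 2 was much closer to it than in *Usp18*, *Ifit3b*, and *Oas2*. *Gvin1*, which encodes a very large interferon-inducible GTPase, was the exception among the 7 interferon genes. It was at 0.01 TPM in both controls and at 0.68, 10.31, and 5.11 TPM after co-culture, with replicate 2 highest. *Gm4070*, 202.567 kb from *Gvin1* on chromosome 7 and carrying the same synonym, VLIG-1, in RefSeq, had 0.08 and 0.01 TPM and then 0.68, 6.62, and 3.20 TPM. Reads may be shared between such near-identical copies, as they may between *Ifit3b* or *Tgtp2* and their paralogs, so the split between copies is uncertain.

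The interferon list held 127 genes, of which 37 were listed for HaCa4 cells, 7 of them among the 68. The sorted mean was the higher in all 37, as the rule required for the 7 and for 5 set aside by name. Over all 290 listed genes it was lower in 98. After scaling to a common median the log2 fold change stayed above 0 in 36 of the 37 and in 167 of the 290. With limma 10 of the 37 passed the thresholds upward and 0 downward, against 46 and 41 of the 290. The median log2 fold change was 1.19 against 0.74 over all listed genes. In the 25 listed interferon genes that were not silent in the controls, sorted replicate 3 was the highest of the sorted libraries in all 25. It was so in 48 of the 94 raised genes that were not silent, which include these 25. Of the 5 interferon genes set aside by name it was so in 4, the exception being *Ifi44* at 0.48, 2.44, and 1.89 TPM.

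Endothelial transcription factors were represented by 5 genes. *Erg*, an ETS factor that maintains endothelial junction genes (chromosome 16 from 95359169 to 95586600), was listed at 0 in each control and read 0.22, 4.30, and 2.02 TPM after co-culture. *Fli1*, a close relative of *Erg*, was also listed at 0 in each control and read 0.16, 1.06, and 0.74 TPM after co-culture. *Bcl6b*, a transcriptional repressor, was the most abundant of the 5, at 0 in each control, with sorted levels of 0.23, 6.27, and 2.40 TPM. All 3 followed the order of replicate 2, then 3, then 1. *Sox7*, a SOX factor of vascular development, had control levels of 0.04 and 0.00 TPM and sorted levels of 0.03, 2.43, and 0.87 TPM, so that replicate 1 did not exceed control 1. *Hhex*, a homeobox factor of endothelial and blood progenitors, was at 0 in each control, with sorted levels of 0.13, 1.49, and 1.04 TPM. Of the 50 factors on the list, 9 were listed for HaCa4 cells. The sorted mean was the higher in all 9, as the rule required for the 5 above, and the lower in 98 of all 290 listed genes. After scaling the log2 fold change was above 0 in 8 of the 9 and in 167 of the 290. The 2 upregulated in limma, against 46 of the 290, were *Id1* and *Id3*, which are not among the 68. They were already abundant in HaCa4 cells grown alone, with control means of 272 and 183 TPM.

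**Figure D3:**
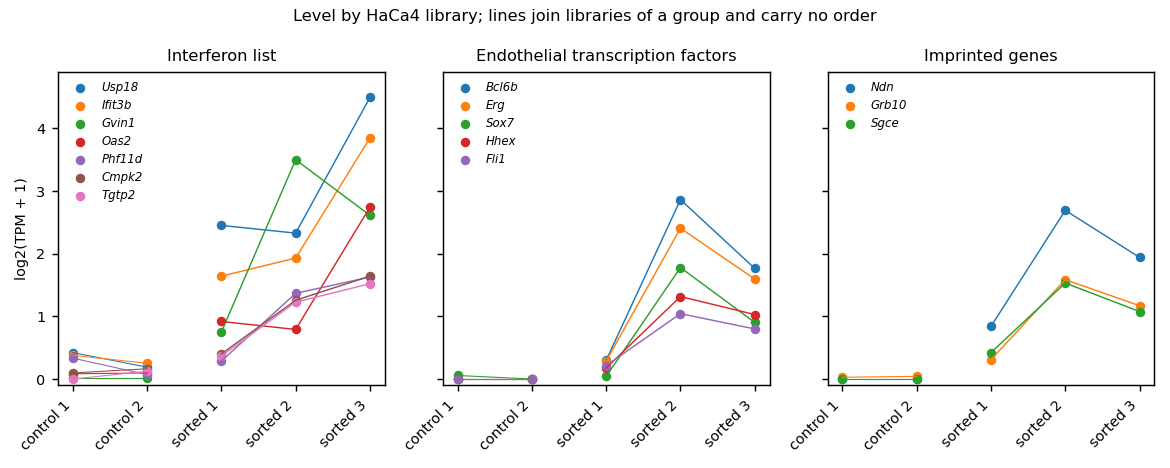
Level of the 7 interferon genes, the 5 endothelial transcription factors, and 3 imprinted genes in each HaCa4 library, as log2(TPM + 1). Lines join libraries of the same group only to guide the eye. Sorted replicate 3 is highest for 6 of the 7 interferon genes, and sorted replicate 2 for *Gvin1*, the transcription factors, and the imprinted genes.

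The largest group on a list was that of small GTPase, kinase, and second messenger signaling, with 9 genes. *Gng11*, a G protein gamma subunit (chromosome 6 from 4003987 to 4008445), was listed at 0 in each control and read 0.31, 6.39, and 5.28 TPM after co-culture. *Rasgrp3*, a nucleotide exchange factor for Ras and Rap, had control levels of 0.05 and 0.03 TPM and sorted levels of 0.37, 5.66, and 2.05 TPM. *Adcy4*, an adenylyl cyclase, went from 0.04 and 0.05 TPM to 0.15, 3.98, and 1.98 TPM. The other 6 genes had lower means. *Rhoj*, a Cdc42-related GTPase of endothelial cells, had a mean of 1.197 ± 1.03 TPM (SD, n = 3) in HaCa4-sorted, and the scaffold gene *Shank3* 0.877 ± 0.822 TPM. *Nos3*, the endothelial nitric oxide synthase that relaxes vessels, had control levels of 0.00 and 0.03 TPM and sorted levels of 0.11, 1.30, and 0.84 TPM. *Fgd5*, an exchange factor for Cdc42, was listed at 0 in each control and read 0.07, 1.32, and 0.59 TPM after co-culture. *She*, an SH2 adaptor, and *Prex2*, an exchange factor for Rac, reached at most 0.94 and 0.31 TPM in any library. In all 9 genes replicate 2 was the highest and replicate 1 the lowest of the sorted libraries. Of 12 listed genes of this group, 1 passed the limma thresholds upward, 0 downward, and that gene was not among the 68. After scaling to a common median 3 passed upward and 2 downward. Over all 290 listed genes 46 passed upward and 41 downward, or 50 and 95 after scaling.

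Surface and junction genes followed the same order. *Myct1*, a membrane protein gene of endothelium (chromosome 10 from 5593728 to 5606789), was listed at 0 in each control and read 0.46, 7.34, and 3.39 TPM after co-culture. *Thy1*, the GPI-anchored protein CD90, which LECs and fibroblasts carry, was listed at 0 in each control and read 0.34, 4.58, and 2.53 TPM after co-culture. *Scarf1*, a scavenger receptor, went from 0.16 and 0.08 TPM to 0.44, 2.40, and 1.21 TPM, and *Pcdh12*, a protocadherin of endothelial junctions, from 0.02 TPM in both controls to 0.08, 0.70, and 0.33 TPM. The signaling ligands and their partners were *Cxcl12*, the chemokine that binds CXCR4, and *Igfbp4*, a secreted binding protein for insulin-like growth factors. *Cxcl12* had control levels of 0.10 and 0.07 TPM and sorted levels of 0.23, 2.41, and 1.48 TPM, and *Igfbp4* had 0.06 TPM in both controls and then 0.45, 4.22, and 2.22 TPM. Of the listed genes, limma called 6 of 20 junction and surface genes upregulated and 2 downregulated. Of 14 receptors and ligands it called 1 upregulated and 0 downregulated. After scaling 12 and 6 were upregulated and 2 and 0 downregulated. Over all 290 listed genes 46 were upregulated and 41 downregulated, or 50 and 95 after scaling. None of the junction, surface, receptor, and ligand genes called without scaling was among the 68.

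Of the genes tied to lymphatic endothelium, *Clca3a1*, a member of the family of calcium-activated chloride channel regulators (chromosome 3 from 144729677 to 144760977), was the most abundant. It had control levels of 0.12 and 0.00 TPM and sorted levels of 0.50, 13.03, and 4.75 TPM. *Scn3b*, a beta subunit of sodium channels, was listed at 0 in each control and read 0.10, 1.16, and 0.64 TPM after co-culture. Of the 8 lymphatic genes listed, all 8 had every sorted library above both controls. This was so for 63.1% of all 290 listed genes and for 91 of 94 raised genes that were not silent. Limma called 0 of the 8 lymphatic genes upregulated, with 4 at an unadjusted p under 0.05, or 4 called after scaling. Of all 290 listed genes it called 46 upregulated, or 50 after scaling. *Tfpi2*, an inhibitor of serine proteases, and *Entpd1*, the ectonucleotidase CD39 that limits platelet activation, act in hemostasis. *Tfpi2* was listed at 0 in each control and read 0.32, 4.48, and 1.62 TPM after co-culture, and *Entpd1* had 0.00 and 0.06 TPM and then 0.35, 3.06, and 1.62 TPM. *Gimap5*, a GTPase of lymphocyte survival that was the single gene of its family listed, was listed at 0 in each control and read 0.06, 1.59, and 1.16 TPM after co-culture.

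Among the matrix genes, *Bgn* (biglycan, a small proteoglycan) departed from the order by a small margin. It had control levels of 0.10 and 0.15 TPM and sorted levels of 0.33, 3.80, and 4.03 TPM, so that replicates 2 and 3 were nearly level. *Srpx2*, a secreted sushi-repeat protein gene, was listed at 0 in each control and read 0.20, 3.04, and 1.44 TPM after co-culture. *Loxl2*, an enzyme that cross-links collagen, had control levels of 0.34 and 0.06 TPM and sorted levels of 0.52, 2.10, and 0.96 TPM. Limma called 1 of the 12 listed matrix genes upregulated and 1 downregulated, neither of them among the 68. After scaling it called 3 and 1. Over all 290 listed genes 46 were upregulated and 41 downregulated, or 50 and 95 after scaling.

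The lists covered 35 of the 68 genes and left 33, with means between 0.163 and 4.15 TPM in HaCa4-sorted. The following members were grouped after their values had been seen. *Tspan6*, a tetraspanin (chromosome X from 133891068 to 133901208), was the most abundant of these, at 0 in each control, with sorted levels of 0.20, 8.34, and 3.92 TPM. *Lrrc32*, which holds latent TGF-β on the cell surface, was at 0.03 TPM in both controls and at 0.42, 6.30, and 3.34 TPM. *Gm29779*, a predicted gene with no position in the RefSeq annotation used, was at 0 and then at 0.35, 7.55, and 3.92 TPM. All of them had replicate 2 highest by a wide margin.

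Imprinted genes, which are expressed mainly from the allele of a single parent, were represented by *Ndn*, *Grb10*, and *Sgce*. *Ndn* (necdin, a growth suppressor, located at chr7:62348277-62349928) was listed at 0 in each control and read 0.79, 5.46, and 2.84 TPM after co-culture. *Grb10*, an adaptor that restrains insulin receptor signaling, had control levels of 0.02 and 0.03 TPM and sorted levels of 0.24, 2.0, and 1.25 TPM. *Sgce*, a sarcoglycan gene, was at 0 and then at 0.34, 1.89, and 1.11 TPM. The levels of *Grb10* and *Sgce* were close to each other in every sorted library.

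Other genes belonged to known signaling systems. *Spns2*, which exports sphingosine 1-phosphate from endothelial cells, had control levels of 0.04 and 0.12 TPM and sorted levels of 0.23, 4.66, and 1.73 TPM. *Npr2* and *Npr3*, the signaling and the clearance receptor of natriuretic peptides, had means of 1.14 ± 0.899 and 0.730 ± 0.702 TPM (SD, n = 3) in HaCa4-sorted. Of the Wnt pathway there were *Sp5*, a zinc finger factor switched on by Wnt, and *Frzb*, a secreted antagonist. *Sp5* was listed at 0 in each control and read 0.22, 2.65, and 1.19 TPM after co-culture, and *Frzb* was listed at 0 and then at 0.20, 0.72, and 0.23 TPM. *Prom1*, which encodes CD133, a surface marker of stem cells in several tissues, had control levels of 0.09 and 0.00 TPM and sorted levels of 0.21, 2.53, and 1.72 TPM. In each of these genes replicate 2 was again highest and replicate 1 lowest.

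*Gm14308*, a predicted gene on chromosome 2 from 176619933 to 176636423, showed a different profile, at 0 in each control, with sorted levels of 1.97, 1.78, and 3.75 TPM. It was the only gene outside the interferon list to exceed 1 TPM in replicate 1. *Armcx2*, *Gfpt2*, *Tbkbp1*, *Dysf*, *Grap*, and *Tll1* had means between 0.923 TPM (*Tll1*, a secreted protease of the tolloid family) and 1.24 TPM (*Gfpt2*, an enzyme of the hexosamine pathway). The lowest group was made up of *Fam174b*, *Pkdcc*, *Clip3*, *Rftn1*, *Gulp1*, *Tbc1d9*, *Tmem47*, *Zfp521*, *Slc35f1*, *Pak3*, *Hmcn1*, *Dchs1*, and *Nhsl2*. Their means lay between 0.163 TPM (*Nhsl2*) and 0.783 TPM (*Fam174b*). In all 19 of these genes replicate 2 was the highest of the sorted libraries.

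Taking the sorted libraries by their order, 60 of the 68 genes had replicate 2 highest, replicate 3 next, and replicate 1 lowest. The other 8 all had replicate 3 highest, and they were *Usp18*, *Ifit3b*, *Oas2*, *Phf11d*, *Cmpk2*, *Tgtp2*, *Bgn*, and *Gm14308*. The ratio of replicate 2 to replicate 1 had a median of 11.7 over the 68 genes, with quartiles of 7.13 and 19.2. It was lowest in *Oas2* (0.820) and highest in *Sox7* (81.0), where the value of 0.03 TPM in replicate 1 makes it coarse. For the 7 interferon genes the ratio of replicate 3 to replicate 2 had a median of 1.53 and for the other 61 genes a median of 0.483. The 61 genes had a median of 4.89%, 63.8%, and 30.8% of their summed sorted level in replicates 1 to 3. *Pecam1*, the gene of the antigen used to sort LECs, had control levels of 0.14 and 0.04 TPM and sorted levels of 1.29, 24.25, and 9.38 TPM, with 3.69%, 69.4%, and 26.9% in replicates 1 to 3. All 21 endothelial and adhesion genes set aside by name were in the order 2, 3, 1, with a median ratio of replicate 3 to replicate 2 of 0.400. In 94 listed genes that were not silent in the controls and rose in mean after co-culture, 17 were in that order and the median ratio of replicate 2 to replicate 1 was 0.829.

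**Figure D4:**
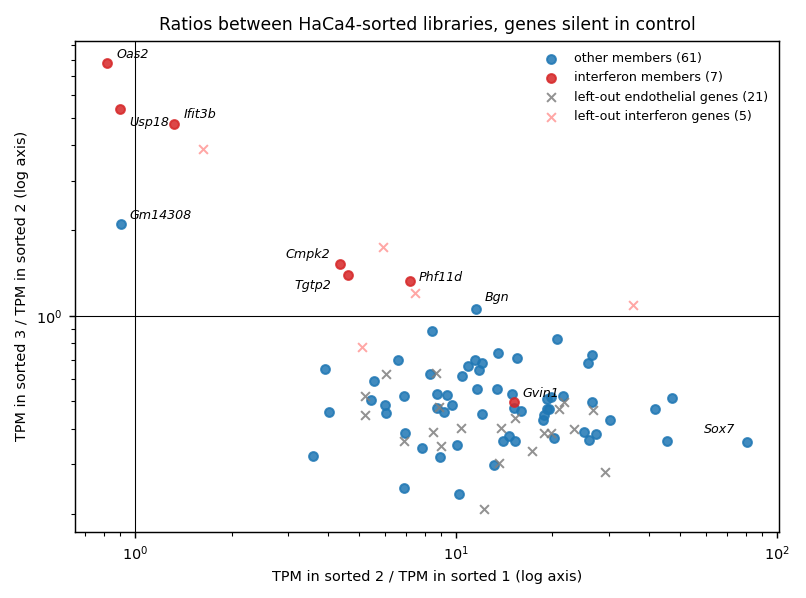
For each silent gene, the ratio of sorted replicate 2 to sorted replicate 1 (x axis, log) and of sorted replicate 3 to sorted replicate 2 (y axis, log). Points are the 7 interferon members, the 61 other members, and, as crosses, the 21 endothelial and 5 interferon genes set aside by name. Most points lie together at the lower right, and 6 of the 7 interferon members, all but *Gvin1*, lie above 1 on the y axis with *Gm14308* and *Bgn*.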

How the data were processed

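RNA was sequenced from 2 HaCa4 control and 3 HaCa4-sorted libraries and, not analysed here, from 6 LEC libraries. The authors filtered the reads with SOAPnuke and aligned them to GRCm38.p6 with HISAT2 2.0.4 (submitters' processing notes). For each library the authors deposited a TPM value per gene with 2 decimals, covering 290 genes in HaCa4 and 191 in LECs. How the listed genes were chosen is not given in the sources used here. The paper reports 191 deregulated genes in LECs, the number listed for LECs, and fewer deregulated transcripts in HaCa4 cells than are listed. The listed genes may therefore have been chosen for a difference in this same contrast. Shares of the 290 genes, p-values adjusted over them, and scaling to their median therefore refer to listed genes only and not to the transcriptome. The tool behind the TPM values is not given in the sources used here. The listed HaCa4 genes hold between 1.84% and 2.39% of a library's TPM. TPM keeps no read numbers, so depth is unknown and the spread between libraries is the only error available. The label numbers the second HaCa4 control 2, whereas its value column carries the number 3.

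Symbols were matched to the gene lists exactly, and positions by Entrez ID to RefSeq (67 of the 68 genes). The count of upregulated genes came from limma 3.58.1 in R 4.3.3 with a mean-variance trend, two-sided, with Benjamini-Hochberg adjustment over 290 genes and without a replicate block. P-values measure only the spread between these libraries. The rule, the gene lists, and the genes described were chosen with earlier results of these data known. Per-library values are given for the most abundant genes, for genes on lists, and for genes out of the common order, and the rest by their range. Tables and plots used Python 3.11.15, pandas 2.3.3, and matplotlib 3.10.9.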

Additional observations from a re-analysis of the deposited data

How the results depend on the processing

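The selection rule gave 53 genes with a limit of 0.1 TPM in the controls and 77 with a limit of 1 TPM, against 68. Genes at the detection level in all 3 sorted libraries numbered 9 at 0.5 TPM, 50 at 0.1 TPM, and 3 at 1 TPM. The median ratio of sorted replicate 2 to sorted replicate 1 was 11.7, 8.40 after scaling the libraries to a common median, and 6.97 with 0.1 TPM added to both. Scaling left 60 genes in the order 2, 3, 1 and shifted the log2 fold changes of all listed genes by a median of -0.72.

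The number of upregulated genes among the 68, 2 in limma, was 34 with a pseudocount of 0.1, 0 with a pseudocount of 5 (2 at an unadjusted p under 0.05), 4 of 23 tested with a mean of at least 1 TPM, 23 with the same median per library, and 0 without the trend (8 at an unadjusted p under 0.05). Among all 290 genes it was 46, with 120, 11, 69, 50, and 0 in the same order (94 at an unadjusted p under 0.05 for the last). Leaving out 1 library gave between 0 and 61 genes of the 68 and between 0 and 146 of the 290. With a single control left, that library is assumed to vary like the sorted ones. With the replicate block the numbers were 3 and 66, and the 3 were only partly the genes called without it. The block takes the second control by its label. Deviations from the group means correlated at 0.231 for replicate 1 and 0.284 for replicate 2, and with 2 shared numbers and no label behind them the libraries were not treated as paired. The low levels, many within a few hundredths of a TPM, and the unknown depth limit the ratios of the rarest genes.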

Other observations

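Some of the 68 genes lay next to each other in the genome (RefSeq, GRCm38.p6). *Tspan6* and *Srpx2* lie on chromosome X on opposite strands, 7.207 kb apart with no protein-coding gene between them. In sorted replicates 1, 2, and 3, *Tspan6* read 0.20, 8.34, and 3.92 TPM and *Srpx2* 0.20, 3.04, and 1.44 TPM. *Tfpi2* and *Gng11* lie 15.008 kb apart on opposite strands of chromosome 6 with 1 protein-coding gene between them, and the imprinted *Sgce* lies 665.904 kb beyond *Gng11*. *Gm4070* and *Gvin1* lie on the same strand of chromosome 7 with no protein-coding gene between them.

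On chromosome X there were 7 of the 67 genes with a position (10.4%), namely *Tspan6*, *Bgn*, *Srpx2*, *Armcx2*, *Tmem47*, *Pak3*, and *Nhsl2*. Of the 218 other listed HaCa4 genes with a position, 6 (2.75%) lay there, as did 4.41% of 21887 protein-coding genes in RefSeq. This difference was noticed in the data and was not tested. Among the 7 genes, 6 had the sorted libraries in the order 2, 3, 1, and their means in HaCa4-sorted ranged from 0.163 to 4.15 TPM.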
